A study of Homo sapiens with 4 samples.

Results

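The last 5 Mb of the long arm of chromosome 22, in band 22q13, were described by all listed Micro-C contacts whose bins both lie from position 45800001 to the end of the chromosome (hg38). These were 337 of the 89239 listed pairs of 50 kb bins, namely the contacts within each of 100 bins and 237 contacts between different bins. The 100 bins run without a gap from 45800001 to 50800000, and no bin beyond that was listed. The filter on low counts removed none of the 337 pairs. The stretch was chosen with results of the same comparison, including its lower contacts, already known. Values of the knockdown against the control are therefore a description here. A pair is named as called lower or higher when edgeR's quasi-likelihood test, adjusted over all 89239 pairs, put it past the threshold of 0.05. The share of all pairs called stands beside each first count, and no test of the stretch as a whole is given.

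SH-SY5Y, the line from which the data came, is an established line of human neuroblastoma, often used as a neuron-like model. Micro-C cuts cross-linked chromatin with micrococcal nuclease and counts how often 2 stretches of DNA are joined, so that a contact within a 50 kb bin joins nucleosomes less than 50 kb apart. The 2 control libraries carried the genotype label control, and the protocol names an shNC hairpin beside the shTDP-43 one. The 2 knockdown libraries came from cells with a stable, lentiviral shRNA against TDP-43, expressed from the U6 vector pLVX-U6-shRNA1. Per the labels, knockdown cells were kept in puromycin at 2 µg/mL for 2 weeks and then at 1 µg/mL. No puromycin values are given for the control libraries, so whether selection differed between the groups is not known. The labels say neither whether the lines are pools or clones nor whether the replicates are separate cultures, so that the spread between libraries may be technical. A contact map gives no check of cell identity by marker expression, or of the knockdown itself.

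Chromosome ends that are rich in genes tend to be active, with many short-range contacts, whereas gene-poor stretches make fewer of them. Band 22q13 ends in such a gene-rich block. Its best-known gene is SHANK3, a scaffold protein of the postsynaptic density whose loss causes Phelan-McDermid syndrome. TDP-43 binds UG-rich RNA and TG-rich single-stranded DNA. The first gene block of the stretch also carries the host transcript of the let-7a-3 and let-7b microRNAs, small RNAs that promote differentiation.

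RefSeq sequences (GRCh38.p14) show what lies in the bins to which the results return. Of the microRNAs in the bins with the highest control levels, let-7a, let-7b and miR-3619 are given first, with the seed, bases 2 to 8, in capitals; they show that let-7a and let-7b, encoded less than 1 kb apart, share their seed, while miR-3619 in the bin before them has another. MIR4763, between the let-7 genes, has other seeds and is not printed.
hsa-let-7a-5p: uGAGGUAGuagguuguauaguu
hsa-let-7b-5p: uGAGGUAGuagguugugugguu
hsa-miR-3619-5p: uCAGCAGGcaggcuggugcagc
The 250 bases upstream of 4 genes that start in 3 of the 5 bins with the lowest fold changes follow, 5′ to 3′ on the strand of the gene, with each CG in capitals. They are shown so that the regulatory sequence at these starts can be read beside the contact values.
HDAC10 (chr22:50251266-50251515, minus strand): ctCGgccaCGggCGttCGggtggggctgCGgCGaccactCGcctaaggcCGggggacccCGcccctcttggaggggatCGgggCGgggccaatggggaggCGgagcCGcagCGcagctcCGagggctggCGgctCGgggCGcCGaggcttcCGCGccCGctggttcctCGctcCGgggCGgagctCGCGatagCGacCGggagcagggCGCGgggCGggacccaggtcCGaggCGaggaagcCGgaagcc
MAPK12 (chr22:50261684-50261933, minus strand): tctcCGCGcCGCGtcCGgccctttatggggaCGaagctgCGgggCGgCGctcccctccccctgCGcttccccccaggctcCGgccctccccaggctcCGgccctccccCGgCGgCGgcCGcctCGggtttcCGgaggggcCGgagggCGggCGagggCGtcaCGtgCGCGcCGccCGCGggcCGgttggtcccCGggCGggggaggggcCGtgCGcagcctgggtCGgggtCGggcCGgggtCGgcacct
CRELD2 (chr22:49918384-49918633, plus strand): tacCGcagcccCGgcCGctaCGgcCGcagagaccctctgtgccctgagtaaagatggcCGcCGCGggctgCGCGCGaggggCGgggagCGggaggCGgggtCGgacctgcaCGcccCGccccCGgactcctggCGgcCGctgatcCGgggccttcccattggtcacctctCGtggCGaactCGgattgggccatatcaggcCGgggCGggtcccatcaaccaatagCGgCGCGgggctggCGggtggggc
PIM3 (chr22:49960522-49960771, plus strand): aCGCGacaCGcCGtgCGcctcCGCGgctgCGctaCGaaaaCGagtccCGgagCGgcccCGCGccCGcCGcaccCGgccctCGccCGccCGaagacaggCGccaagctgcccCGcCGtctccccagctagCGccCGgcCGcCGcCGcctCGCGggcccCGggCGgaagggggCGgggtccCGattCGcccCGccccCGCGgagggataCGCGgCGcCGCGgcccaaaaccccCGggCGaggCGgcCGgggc
They hold 35, 37, 30 and 47 CG dinucleotides in that order, and the CRELD2 window overlaps that of its divergent neighbour ALG12 by 195 bases. Over the 39 genes of the stretch with an entry, the median was 31 CG dinucleotides and 75.6% G and C, against 17 and 62.4% over 15842 protein-coding genes in the same table. The TG repeat TGTGTG, searched on both strands (as TGTGTG or CACACA), was found in 5 of the 39 windows (12.8%) and in 11.9% of the 15842. None of the 4 printed windows holds it.

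RefSeq places 49 named protein-coding genes in the stretch, and their positions divide it into 5 parts. A first gene block runs from ATXN10 to TBC1D22A (up to 47.2 Mb, 28 bins, 12 genes). It is followed by a stretch of 25 bins with no named protein-coding gene (47.2 to 48.45 Mb). TAFA5 alone (48.45 to 48.8 Mb, 7 bins) and 19 further bins without such a gene (48.8 to 49.75 Mb) come next. Gene-free here means without a named protein-coding gene. Such bins can hold other genes, as with MIR3201 in the first gene-free stretch. The last 21 bins, from BRD1 to RABL2B (49.75 to 50.8 Mb), hold 36 genes. In the control libraries, contacts within a bin had a median of 81.2 and 85.5 CPM (contacts per 1e6 listed contacts, with TMM-scaled library sizes) in the first gene block and 83.7 and 89.6 CPM in the last. The medians were 18.6 and 18.9 CPM in the first gene-free stretch, 54.7 and 57.5 CPM over TAFA5 and 35.0 and 36.8 CPM in the second gene-free stretch. Control levels were thus higher over both gene blocks than between them, and in the first gene-free stretch the mean control level of a bin went down to 7.77 CPM.

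The highest control level of the stretch lay at the let-7 genes. The bin at 46.1 to 46.15 Mb, which contains MIRLET7A3 and MIRLET7B, had 191 and 217 CPM in control and 139 and 145 CPM in the knockdown. The bin before it, with MIR3619, had 184 and 199 CPM in control and 150.2 and 151 CPM in the knockdown. Neither overlaps a named protein-coding gene. The third highest bin holds MAPK12, MAPK11, the start of HDAC10 and part of PLXNB2. The lowest control levels were those of the last bin of the chromosome in the list, which holds RABL2B (3.07 and 3.42 CPM), and of 2 gene-free bins from 47.95 to 48.05 Mb. RABL2B has a near-identical copy, RABL2A, so that reads may not be placed uniquely there, and its value is uncertain.

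**Figure D1:**
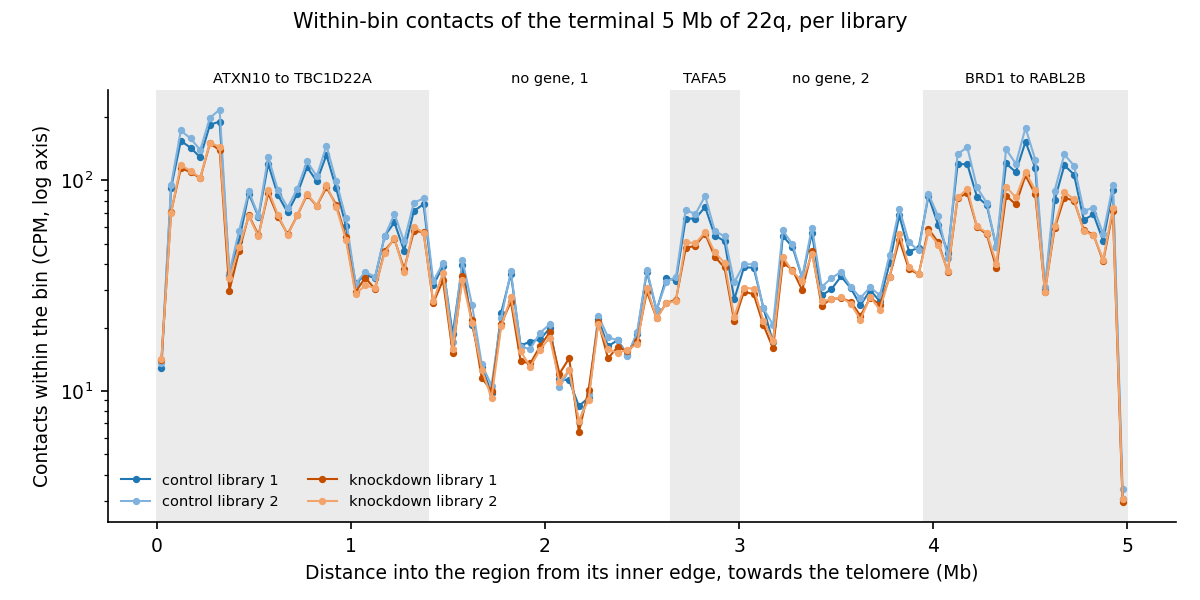
Contacts within each 50 kb bin (CPM, log axis) against the distance from the inner edge of the stretch (Mb), with 1 line per library and gene-bearing parts shaded. The control lines (blue) lie above the knockdown lines (orange) over most of both gene blocks, and the 4 lines run close together in the first gene-free stretch.

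Contacts within bins were lower in the knockdown along most of the stretch. Of all 337 pairs, 114 were called lower with TMM scaling and 0 higher, where 10.5% and 5.76% of all listed pairs were. Once a trend of the fold change with abundance was removed, described below, the counts were 90 and 1, against 5.95% and 4.98%. Both knockdown libraries lay below both control libraries in 205 pairs and above them in 15, against 26.3% and 29.8% of all listed pairs. Among contacts within a bin, and with TMM, 73 of the 100 within-bin contacts were called lower and 0 higher, where 14.3% of all 48992 within-bin contacts were called lower and 7.4% higher. The stretch was proposed from this contrast, so nothing is read from that difference. The median within-bin level of the 100 bins was 47.2 and 48.9 CPM in control and 37.7 and 37.1 CPM in the knockdown. Both knockdown libraries lay below both control libraries in 91 bins and above them in 2, against 28.5% and 31.4% of all within-bin contacts. The median log2 fold change was -0.34, with a range from -0.62 to 0.17 and a median standard error of 0.06. As a share of all listed contacts without any scaling, the 337 pairs took 0.669% and 0.704% in control and 0.584% and 0.592% in the knockdown. The groups did not overlap. The stretch was chosen with its lower contacts known, so nothing is read from this gap either. The counts behind these shares were 1059871 and 1148887 contacts in control and 672925 and 843359 in the knockdown.

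How much lower a bin was depended on how the libraries were scaled. With TMM, bins with more contacts in control had lower fold changes (Pearson r = -0.82, Spearman rho = -0.84 over 100 bins; the axes share the control counts and the bins share the 4 libraries, so this is a description). In all listed pairs the fold change also moved with abundance, and a second fit removed that trend with a loess curve per library. The relation within the stretch then became r = -0.07. With the trend removed, 43 bins were called lower and 1 higher, against 5.11% and 7.9% of all within-bin contacts, and the median log2 fold change was -0.13. All 43 were also among the 73 called with TMM. Values with the trend removed are therefore given beside those with TMM for many of the counts and named bins. A log2 fold change given alone is from TMM unless another fit is named.

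**Figure D2:**
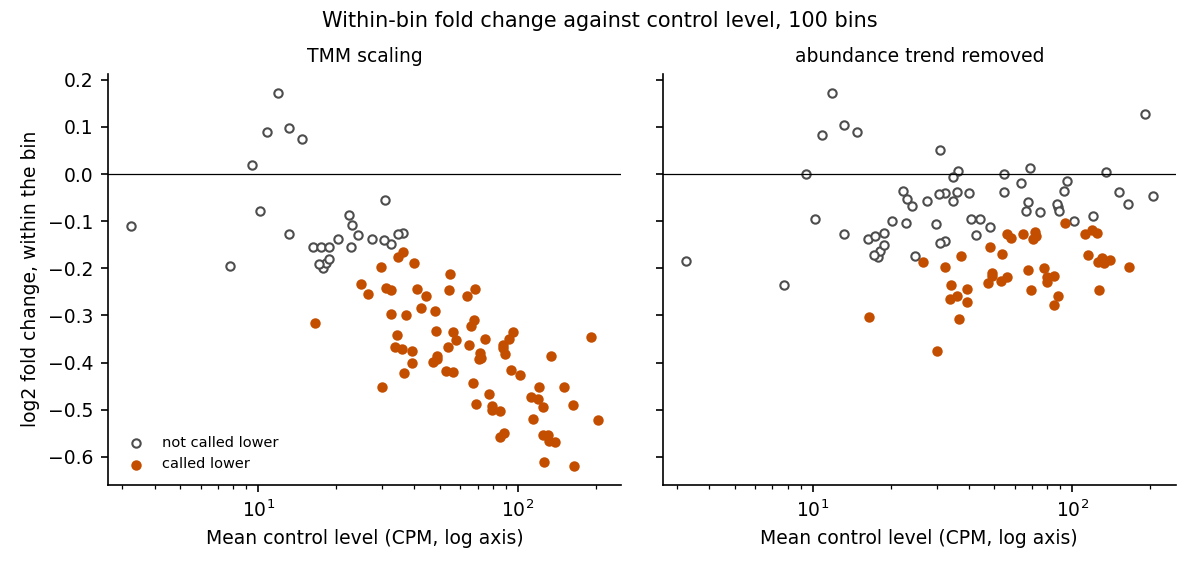
The log2 fold change of contacts within each of the 100 bins against the mean control level (CPM, log axis), with TMM scaling (left) and with the abundance trend removed (right); filled points were called lower. On the left the points fall with the control level (r = -0.82), and on the right the slope is gone (r = -0.07) while most points remain below 0.

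**Figure D3:**
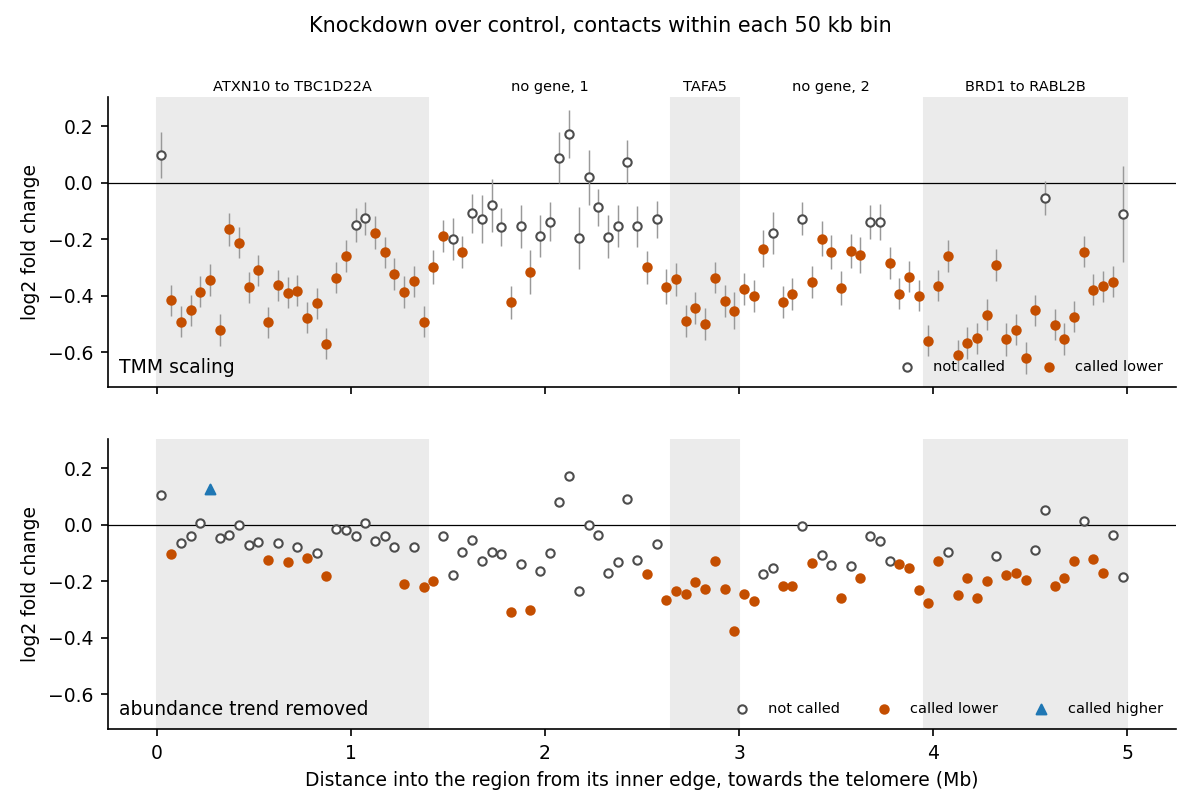
The log2 fold change of contacts within each bin along the stretch, with TMM (top; bars are 1 standard error) and with the abundance trend removed (bottom); filled circles were called lower and the triangle higher. With the trend removed, the calls lie mostly from TAFA5 to the telomere, and 7 of 28 bins of the first gene block remain called lower.

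In the first gene block, 25 of 28 bins were called lower with TMM, at a median log2 fold change of -0.37, but 7 were with the trend removed, at a median of -0.06. WNT7B, which encodes a Wnt ligand, spans 2 bins. The first had 154 and 173 CPM in control and 114 and 118 CPM in the knockdown, a log2 fold change of -0.49 (SE 0.06), which became -0.06 with the trend removed. CELSR1, a cadherin of planar cell polarity, spans 4 bins, each called lower with TMM (log2 fold changes from -0.49 to -0.36), and 2 of them remained called with the trend removed (from -0.13 to -0.06). The groups did not overlap in any of these bins of WNT7B or CELSR1.

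The lowest bin of this block joins the end of GRAMD4 to CERK, which encodes ceramide kinase. It had 132 and 146 CPM in control and 92.6 and 95.0 CPM in the knockdown, and was called in both fits (log2 fold change -0.57, SE 0.06; -0.18 with the trend removed). TBC1D22A, which encodes a Rab GTPase-activating protein, runs over 9 bins, of which 7 were called lower with TMM (fold changes from -0.49 to -0.13 in log2) and 2 with the trend removed. Its start, at 61.1 and 66.3 CPM in control and 54.1 and 52.4 CPM in the knockdown, had a log2 fold change of -0.26, or -0.02 with the trend removed. PPARA, a nuclear receptor of lipid metabolism, spans 2 bins with log2 fold changes of -0.17 and -0.21, both called with TMM and neither with the trend removed.

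At the bin of the let-7 genes the size of the change depended on the scaling, and at that of MIR3619 the direction did too. The bin of MIRLET7A3 and MIRLET7B was at -0.52 (log2 fold change, SE 0.06) with TMM and at -0.05, not called, with the trend removed. The bin of MIR3619 had -0.35 with TMM, called lower, and 0.13 with the trend removed, called higher. It is the 1 member called higher in that fit. Contacts between these adjoining bins had 20.5 and 24.6 CPM in control and 17.2 and 17.9 CPM in the knockdown, and were called lower in both fits (log2 fold changes -0.36 and -0.32).

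The inner end of the stretch is the 3′ part of ATXN10, a gene known for a repeat expansion in ataxia. Its bin had 12.8 and 13.5 CPM in control and 14.0 and 14.1 CPM in the knockdown. At 0.10 (SE 0.08), its log2 fold change was the second highest of the 100 bins, with no call. The bin just outside the edge, also within ATXN10, had 14.0 and 13.4 CPM in control and 13.9 and 14.9 CPM in the knockdown (log2 fold change 0.07), and the one before that 4.56 and 4.21 CPM in control and 6.45 and 5.75 CPM in the knockdown (0.47, called higher in both fits). The next bin inside, at 45.85 to 45.9 Mb, had 92.5 and 95.5 CPM in control and 70.7 and 70.2 CPM in the knockdown (log2 fold change -0.42). ATXN10 ends at 45845307, within the first bin inside the edge.

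Calls were fewer in the first gene-free stretch with TMM. Of its 25 bins, 7 were called lower with TMM and 5 with the trend removed, and the median log2 fold changes were -0.15 and -0.13. These bins have few contacts, with standard errors up to 0.11 against a median of 0.06 over all 100 bins. A change of a given size is therefore less easily called here. The highest fold change of all 100 bins was here, at 47.9 to 47.95 Mb, with 11.2 and 12.6 CPM in control and 14.3 and 12.5 CPM in the knockdown (log2 fold change 0.17, SE 0.08, not called). The libraries of the groups overlapped there, and without control library 2 the bin was called higher, at 0.26. The lowest fold change of these bins was at 47.6 to 47.65 Mb, with 35.9 and 37.1 CPM in control and 26.5 and 27.9 CPM in the knockdown. It was called lower in both fits (log2 fold changes -0.42 and -0.31).

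From TAFA5 onwards more of the calls were kept with the trend removed than in the first gene block. The first gene-free stretch, before TAFA5, also kept 5 of its 7. TAFA5 encodes a secreted, chemokine-like protein of the nervous system and lies alone between the gene-free stretches. All 7 of its bins were called lower in both fits, with log2 fold changes from -0.50 to -0.34 with TMM and from -0.37 to -0.13 with the trend removed. The bin that holds its start had 33.5 and 34.8 CPM in control and 27.2 and 26.7 CPM in the knockdown. Summed over its 7 bins, the level was 373 and 406 CPM in control and 283 and 293 CPM in the knockdown, with no overlap. In the second gene-free stretch, 15 of 19 bins were called lower with TMM and 10 with the trend removed, with medians of -0.28 and -0.15.

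In the last block, from BRD1 to RABL2B, 19 of 21 bins were called lower with TMM (median log2 fold change -0.47) and 14 with the trend removed (median -0.17). Of the 5 lowest bins of the whole stretch, 4 lay here. The lowest holds the end of PLXNB2, the p38 kinase genes MAPK11 and MAPK12, and the start of HDAC10. It had 153 and 178 CPM in control and 106 and 109 CPM in the knockdown, a log2 fold change of -0.62 (SE 0.06; -0.20 with the trend removed). The bin of CRELD2 and the start of ALG12 had 119 and 133 CPM in control and 82.3 and 83.0 CPM in the knockdown (log2 fold change -0.61, SE 0.06; -0.25 with the trend removed). The bin of PIM3 and part of IL17REL followed, with 119.9 and 144 CPM in control and 87.4 and 91.0 CPM in the knockdown (-0.57 and -0.19). Upstream sequences from each of these bins are printed above. In each, the knockdown libraries lay closer to each other than the control libraries did.

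BRD1 encodes a bromodomain protein of histone acetyltransferase complexes. The bin with the 3′ part of the gene had 84.2 and 86.4 CPM in control and 58.9 and 56.9 CPM in the knockdown (log2 fold change -0.56, SE 0.05). Its value with the trend removed, -0.28, was the lowest of the 21 bins of the last block. The bins of this block did not all move alike. A bin that lies wholly inside PPP6R2, a regulatory subunit gene of protein phosphatase 6, had 30.4 and 31.2 CPM in control and 29.6 and 29.7 CPM in the knockdown. Its log2 fold change was -0.05 (SE 0.06), or 0.05 with the trend removed, with no call and no overlap of the groups, and the bins on either side of it had -0.45 and -0.50 with TMM. RABL2B, in the last bin, was the other with no call (-0.11, SE 0.17).

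The 49 genes were also grouped by what they do, each read at the bin that holds its start. That bin was known for 45 genes, which share 23 bins, so the genes of a group are not independent. Of the 45, 44 were in bins called lower with TMM and 29 in bins called lower with the trend removed. In bins called higher there were 0 in either fit. Over all within-bin contacts, 14.3% were called lower and 7.4% higher with TMM, and 5.11% and 7.9% with the trend removed. Some bins enter more than 1 group, such as that of TYMP, NCAPH2 and CIMAP1B. The groups thus partly repeat the same values, and no group is read as differing from the rest.

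The group of neuronal and adhesion genes also holds ADM2 and MLC1, described below. All 7 of its genes with a known start bin were called lower with TMM (median log2 fold change -0.45) and 6 with the trend removed (median -0.18). SHANK3 starts in a bin with 51.7 and 55.8 CPM in control and 41.3 and 42.0 CPM in the knockdown (log2 fold change -0.37, SE 0.06; -0.17 with the trend removed), called in both fits. Its second bin, shared with ACR, had -0.35 with TMM and -0.04, not called, with the trend removed. PANX2, a pannexin channel gene, had 120 and 141 CPM in control and 84.7 and 93.3 CPM in the knockdown at its bin (log2 fold change -0.55). ADM2, which encodes the peptide hormone intermedin, also had -0.55, and MLC1, a membrane protein of astrocytes, had -0.47. With the trend removed, PANX2, ADM2 and MLC1 had -0.18, -0.19 and -0.20, each still called. PLXNB2, a semaphorin receptor gene, starts in a bin at 115 and 126 CPM in control and 86.0 and 90.1 CPM in the knockdown. Its log2 fold change of -0.45 became -0.09, with no call, once the trend was removed.

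The kinases and phosphatase regulators gave 6 of 6 called lower with TMM and 4 with the trend removed. Besides MAPK11, MAPK12 and PIM3, the group includes SBF1, a pseudophosphatase of the myotubularin family, whose bin had 118 and 133 CPM in control and 82.9 and 88.2 CPM in the knockdown (log2 fold change -0.55). The bin of SBF1 had -0.19 with the trend removed. CHKB, choline kinase beta, shares its bin with CPT1B, the muscle form of carnitine palmitoyltransferase, and had -0.24 with TMM and 0.01 with the trend removed.

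Of the metabolic and mitochondrial genes, 10 of 10 were called lower with TMM and 7 with the trend removed. ALG12, a mannosyltransferase of N-glycan assembly, had a log2 fold change of -0.61 at its start, MIOX, myo-inositol oxygenase, -0.55, and SELENOO, a mitochondrial selenoprotein, -0.52. With the trend removed these were -0.25, -0.19 and -0.17. TYMP, thymidine phosphorylase, lies in a bin with LMF2, NCAPH2, SCO2, CIMAP1B and part of KLHDC7B that had 107 and 118 CPM in control and 80.0 and 81.4 CPM in the knockdown (log2 fold change -0.47; -0.13 with the trend removed). That bin, the fullest of the stretch with 6 named genes, thus had a smaller fold change than the bin of MAPK11 and MAPK12.

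For genes of chromatin, chromosomes and the spindle, 6 of 6 were called lower with TMM and 4 with the trend removed. HDAC10, a polyamine deacetylase, had -0.62, TUBGCP6, a subunit of the gamma-tubulin ring complex, -0.52, NCAPH2, a condensin II subunit, -0.47 and GTSE1, a microtubule-associated cell cycle protein, -0.37. With the trend removed these were -0.20, -0.17, -0.13 and -0.07, and GTSE1 was then not called. The start of BRD1 lies in its less changed bin, at -0.36 (-0.13 with the trend removed). Germline genes gave 6 of 6 and 3. They include TTLL8, a tubulin glycylase, and MOV10L1, the helicase of piRNA processing, which start in 1 bin at -0.47 (log2 fold change; -0.20 with the trend removed). CIMAP1B, a sperm-tail gene, also had -0.47 (-0.13 with the trend removed). PKDREJ, a receptor-like gene of sperm, had -0.37 (-0.07, not called, with the trend removed). In the last group, of membrane traffic, GTPase and other genes, 9 of 10 were called with TMM and 5 with the trend removed. CRELD2, an endoplasmic reticulum stress protein, had -0.61, TRABD and IL17REL -0.55 each, and GRAMD4 -0.48. With the trend removed, CRELD2 had -0.25, TRABD -0.18, IL17REL -0.26 and GRAMD4 -0.12.

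Bins with more named protein-coding genes had higher control levels. The class without such a gene still includes the bins of the let-7 genes and of MIR3619, which had the highest control levels. With TMM, the median log2 fold change was -0.22 in the 48 bins without a named protein-coding gene and -0.36 in the 32 bins with 1. It was -0.49 in the 11 bins with 2 and -0.47 in the 9 bins with 3 or more. Their median control levels were 30.2, 64.2, 88.2 and 115 CPM in that order. Once the trend was removed, the medians were -0.13, -0.11, -0.13 and -0.17. Of the 48 bins without a named protein-coding gene, 16 were called lower in that fit.

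Contacts between different bins were listed for 94 of 99 possible adjoining pairs, 55 of 98 pairs at 100 kb and 21 of 96 at 200 kb, and none was listed beyond 400 kb. The list holds only the more abundant pairs. In the first gene block 28 pairs of 200 kb or more were listed and in the last block 23, against 0 in the first gene-free stretch. Of the 237 pairs, 8 joined different parts of the stretch. Median control levels fell from 5.74 CPM at 50 kb to 2.48 CPM at 100 to 150 kb and 2.29 CPM at 200 kb or more.

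Of these 237 pairs, 41 were called lower with TMM and 0 higher, where 5.83% and 3.76% of all pairs of different bins were. Without the trend the count was 47 and 0, against 6.98% and 1.44%. The median log2 fold changes were -0.17 and -0.23. In both fits, 40 pairs were called lower. Without knockdown library 1 the median with TMM was -0.16, and most of the calls were lost, down to near the share over all such pairs. Without knockdown library 2 the median was -0.22, and fewer calls were lost. In both cases the remaining library is assumed to vary like the controls. For contacts within a bin the medians were -0.32 and -0.33 in that order, and most calls were kept.

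By distance, 24 of 94 adjoining pairs were called lower with TMM (5.64% of all adjoining pairs), 8 of 89 pairs at 100 to 150 kb (4.62%) and 9 of 54 pairs at 200 kb or more (7.92%). The median log2 fold changes were -0.15, -0.14 and -0.27 in that order, against 0.09, -0.01 and -0.12 over all listed pairs of the class. The fit without the trend called 25, 11 and 11, against 5.33%, 6.59% and 11.3% of all pairs of the class. None was called higher in either fit, where 5.8%, 2.27% and 1.13% of all pairs of the class were with TMM and 2.32%, 0.732% and 0.379% with the trend removed. In the last gene block 8 of 23 pairs at 200 kb or more were called lower with TMM, and in the first 1 of 28; the difference between the blocks was not tested. The first gene-free stretch had 0 of its 20 pairs called lower with TMM and TAFA5 4 of 10.

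**Figure D4:**
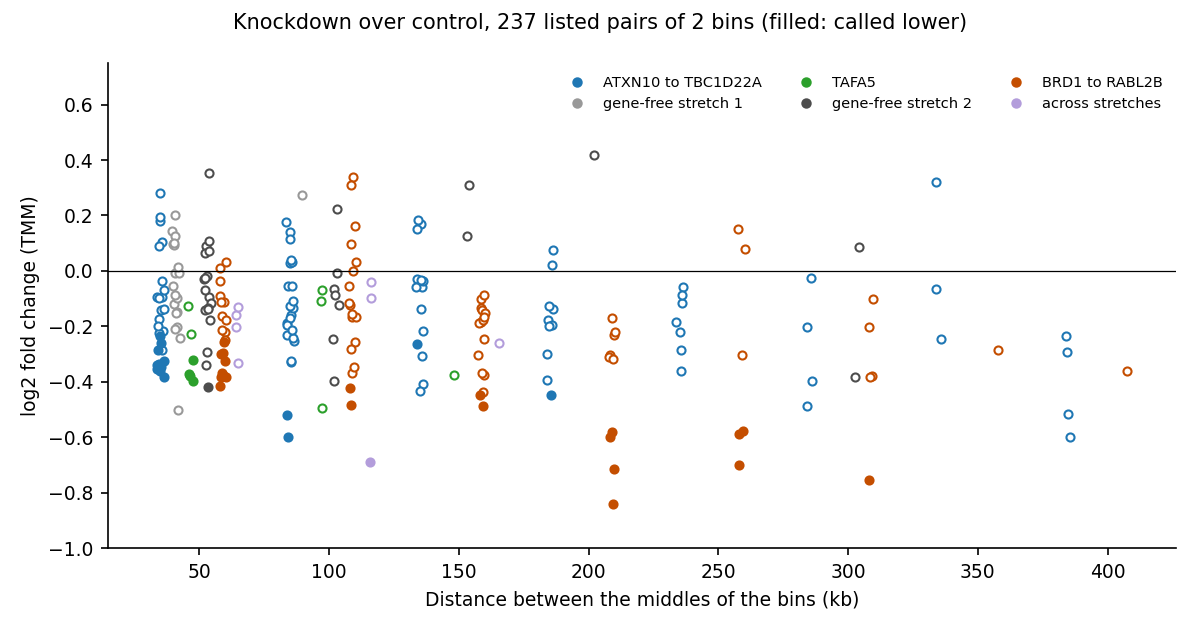
The log2 fold change (TMM) of the 237 listed pairs of different bins against their distance (kb), coloured by the part of the stretch that holds both bins; filled points were called lower, and points at a distance are spread sideways by part. The lowest values, down to -0.84, are pairs of the last gene block at 200 kb or more.

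The lowest value of all members was the contact between BRD1 and the bin of PIM3 and IL17REL, 200 kb away. It had 2.05 and 2.05 CPM in control (314 and 315 contacts) and 1.02 and 1.26 CPM in the knockdown (124 and 187 contacts), a log2 fold change of -0.84 (SE 0.23; -0.93 with the trend removed). Contacts of the bin of CRELD2 and ALG12 with that of SELENOO, TUBGCP6 and HDAC10, 300 kb away, had 4.94 and 4.56 CPM in control and 3.43 and 2.23 CPM in the knockdown (log2 fold change -0.75, SE 0.16). Without knockdown library 2 the value was -0.47, with no call. Contacts between PPP6R2 or SBF1 and MAPK8IP2 or ARSA, 200 kb apart, had 2.44 and 2.65 CPM in control and 1.37 and 1.72 CPM in the knockdown (log2 fold change -0.71, SE 0.21). MAPK8IP2 encodes a scaffold of JNK signalling and ARSA encodes arylsulfatase A. Without knockdown library 1 the values of the pairs of BRD1 and of SBF1 were -0.70 and -0.56, with no call. In all 3 pairs the groups did not overlap.

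At 100 to 150 kb, the lowest pair joined a bin inside TAFA5 to the first gene-free bin beyond the gene, with 1.99 and 2.18 CPM in control and 1.28 and 1.30 CPM in the knockdown (log2 fold change -0.69, SE 0.22). The bin of GRAMD4 and CERK with the start of TBC1D22A followed, with 3.58 and 4.05 CPM in control and 2.39 and 2.64 CPM in the knockdown (-0.60, SE 0.17). The third lowest pair lay within TBC1D22A (-0.52, SE 0.16). Each was called in both fits with all libraries, and each lost its call without either knockdown library and without control library 2, at values from -0.70 to -0.42. The groups did not overlap in any of them.

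Among adjoining bins the lowest value was that of a pair in the first gene-free stretch, at 47.6 to 47.7 Mb (log2 fold change -0.50, SE 0.20), which was not called with TMM but was with the trend removed. The next, in the second gene-free stretch at 49.25 to 49.35 Mb, had 5.23 and 4.28 CPM in control and 3.82 and 3.30 CPM in the knockdown (-0.42, SE 0.15). It was called with all libraries and lost its call without control library 1 (-0.28), without either knockdown library, with DESeq2 and at a threshold of 0.01. The third joined PIM3 and IL17REL to IL17REL and TTLL8, with 12.6 and 14.0 CPM in control and 9.12 and 10.8 CPM in the knockdown (-0.42, SE 0.09; -0.42 with the trend removed). It lost its call without knockdown library 1 (-0.30). Over the 94 adjoining pairs, the TMM fold change between bins went with the mean of the within-bin ones (Pearson r = 0.60, Spearman rho = 0.62, a description over bins that share libraries). It is given for TMM only, the fit in which fold changes moved with abundance, and was not computed with the trend removed.

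The highest value of each distance class had no call. It was 0.35 for adjoining gene-free bins at 49.45 to 49.55 Mb, 0.34 for BRD1 with ZBED4 and ALG12 at 100 kb and 0.42 for a pair of gene-free bins 200 kb apart. For the pair of BRD1 with ZBED4 and ALG12 the libraries had 2.33 and 1.62 CPM in control and 2.31 and 2.66 CPM in the knockdown, so the groups overlapped. Without control library 1 it was called higher (0.61).

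The rest of chromosome 22, up to the edge of the stretch, is given beside these values as a description. Of its 547 within-bin contacts, 196 were called lower and 53 higher with TMM, with a median log2 fold change of -0.04, and 45 lower and 79 higher with the trend removed, with a median of 0.05. Of its 951 pairs of different bins, 31 were called lower and 43 higher with TMM, and 38 lower and 15 higher with the trend removed. Median control levels within a bin were 25.6 CPM there and 48.2 CPM in the terminal stretch. The difference between the stretch and the rest of the chromosome was not tested, since the stretch was chosen from the same contrast.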

How the data were processed

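Micro-C contacts were measured in 2 control and 2 knockdown libraries. Titles call each library "merged" without saying of what. HiC-Pro and the build hg38 are given, with no version, per the submitters' processing notes. The authors deposited raw contact counts for pairs of 50 kb bins. Per the file headers, their table also gives a fold change and a mean abundance on the log2 scale, an F statistic (a score), and p-values before and after adjustment. The listed mean abundance starts at -0.0127 (log2), so less abundant pairs were not analysed here. Listed contacts per library ranged from 115168160 to 163147992, and contacts within a bin took 83.8% to 84.9% of them.

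Counts of all 89239 pairs were fitted with edgeR 4.0.16 (R 4.3.3, limma 3.58.1) with TMM scaling, filterByExpr (0 pairs removed), glmQLFit and glmQLFTest, with Benjamini-Hochberg adjustment over all pairs and a threshold of 0.05. The standard error is the absolute log2 fold change over the square root of F. CPM are from edgeR. The trend with abundance was removed by loess (span 0.3) of log counts per library; its fold changes differ from the authors' by at most 0.00309. DESeq2 1.42.0, TMM within distance classes, no filter, a threshold of 0.01, a replicate block and each library left out were alternatives. The TMM fit and DESeq2 were also run on simulated counts without an abundance trend. The fit with the trend removed was not, and nothing here rests on that run. Parts of the stretch follow RefSeq gene bodies (GRCh38.p14, protein-coding, without LOC names), a run of 10 or more gene-free bins making its own part. A gene's start bin came from the strand in the promoter table or, without an entry, from a body within 1 bin; WNT7B, CELSR1, CERK and ATXN10 have no start bin here.

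The members, lists and rules were chosen with earlier results of these data known. The text names the 5 lowest and 3 highest within-bin contacts, the 3 lowest and the highest pair per distance class, the 3 highest and lowest control bins, up to 4 genes per group by size of change, and SHANK3, PLXNB2, CELSR1, TBC1D22A, TAFA5 and BRD1. Other items were chosen after their values were seen. Among them are WNT7B, PPARA, the PPP6R2 bin, CHKB, CPT1B, ARSA, MAPK8IP2 and the bins at 45.85 and 47.6 Mb. The pair of the let-7 and MIR3619 bins is another. With 2 libraries a group, an exact permutation test of a single value cannot go below 0.333 (two-sided) and was not used. Summaries used pandas 2.3.3 under Python 3.11.15, and figures matplotlib 3.10.9.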

Additional observations from a re-analysis of the deposited data

How the results depend on the processing

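The count of lower members, 114 with TMM, was 90 with the abundance trend removed, 104 with DESeq2, 123 with TMM within distance classes, 114 with no filter and 90 at a threshold of 0.01. With the trend removed 1 member was higher, and the median within-bin log2 fold change went from -0.34 to -0.13; in the authors' deposited table these were also 1 and -0.13, a fit nearly the same. At the threshold of 0.01, 8738 of all pairs passed, against 14469 at 0.05. Leaving out each library in turn gave 67 to 137 lower members (67 without knockdown library 1), 0 to 2 higher members, 4910 to 16764 pairs in all, a median within bins of -0.39 to -0.30 and between bins of -0.23 to -0.11. Of the 114, 61 were called lower without any 1 library. The replicate block gave 116 lower and 0 higher members. The labels give no shared origin for equal numbers, and deviations of same-numbered libraries correlated at 0.019 over all pairs. Single items turned direction as follows. The bin of MIR3619 went to 0.13 both in the authors' deposited table and without the trend. The gene-free bin at 48.0 to 48.05 Mb, 0.02 with TMM and never called, went to -0.00055 with the trend removed, -0.00049 in the authors' deposited table, and from -0.056 to 0.092 when each library was left out (below 0 without control library 1, at -0.02, and without knockdown library 1). Of 38 named items, 28 were called, and with the trend removed 4 of them lost their call. Pairs of different bins rest on fewer contacts per library, with a median standard error of 0.17, against 0.06 within bins. Why results moved was not tested.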
